A study of Mus musculus with 3 samples.

Results

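Bone morphogenetic proteins (BMPs) are secreted ligands of the TGF-beta superfamily. They bind paired serine/threonine kinase receptors, which phosphorylate the BMP receptor SMADs, and these act with Smad4 on target genes such as the Id family. Secreted antagonists bind the ligands outside the cell and keep them from the receptors. In limb tissue BMPs are known for their roles in cartilage and bone formation and in the tendon attachment, and in blood vessels for their action on endothelium.

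The transcripts described are those of 5 BMP ligands (Bmp2, Bmp4, Bmp5, Bmp6, Bmp7), of the related ligand Gdf10 (also called BMP3b), and of 3 secreted antagonists (Grem1, Chrdl1, Sostdc1). They were chosen by gene symbol. All 9 symbols matched 1 feature each among the 33696 features of either tendon library and the 35980 features of the ganglion library.

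The study measured RNA in single cells of C57BL/6 mice in 3 droplet libraries (10x Genomics), in which a barcode marks a droplet and a unique molecular identifier (UMI) marks a captured transcript. The neurectomy library held cells of the Achilles tendon after the sural nerve, which carries sensory fibres, had been cut 1 week before the ankle was held in dorsiflexion for 4 weeks, a model of tendon overstrain. The sham library held Achilles tendon cells after an operation that only exposed the nerve, with the same 4 weeks of immobilisation, so no tendon without overstrain was sampled. Each tendon group had 5 mice, of an age and sex that the labels do not give, and the labels do not say how the mice were combined. The ganglion library held L4 to S1 dorsal root ganglia, the seat of the sensory neuron cell bodies, 18 ganglia of 6 mice in 1 pool. At 4 weeks of age these mice had received 5 µL of the tracer virus AAV-PHP.S-tdTomato in the left tendon sheath, and the ganglia were taken 4 weeks later. The labels disagree on whether ganglia of the other side were included, and one label calls the vector a lentivirus. Each group was thus 1 library, and no test between groups was possible. Intervals in the text are exact 95% intervals, which cover counting error only.

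The neurectomy, sham and ganglion libraries held 25067, 32951 and 23566 barcodes with medians of 1212, 1065 and 3422 UMIs, and 21992, 25306 and 22741 of them were kept. Sex-linked transcripts separated the pools. The neurectomy library held 55528 Xist UMIs and 39 of 4 Y-linked genes, the sham library 61571 and 6366, and the ganglion library 23 and 49538. The tendon libraries also had 1001 barcodes in common, against 153 that the neurectomy library and 189 that the sham library had in common with the ganglia. Those kept had a median of 23737 UMIs in the neurectomy library and 2167 in the sham library and held 22.2% and 12.7% of all kept UMIs. Of the 569 that were kept in both libraries, 217 were at least 10 times deeper in the neurectomy library and 191 at least 10 times deeper in the sham library, and 159 of the 274 with a class in both had the same class. Leaving these barcodes out moved 3 values of members in their highest compared tendon class and 9 other values beyond counting error. Not all of these are given both ways.

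Cells were classed by marker genes. The names end in "-like" because they rest on those markers alone, and the gates had 14.3% to 71.7% of the barcodes of the 10 compared tendon classes near a threshold or at the lowest number of markers allowed. In the ganglia this share was 1.02% to 47.3%, and highest in non-myelinating Schwann-like cells. Their leading genes Robo2, Kctd16 and Cntnap2 were also among those of the neuron-like class. No class name was given to a small gate led by Ibsp and Spp1, to a cartilage marker gate, to a ganglion gate of 103 barcodes led by Ptgds, Igfbp6, Fn1 and Lypd2 (called the Slc2a1 and Lypd2 gate after its gating markers) or to a lymphocyte marker gate, since their leading genes went against the name. Levels are in CPM, the member's share of all UMIs of the class scaled to a total of 1000000. A gene counted as measured in a tendon class, and was compared there, where the libraries summed to 50 UMIs or more and the higher one reached 10 CPM, and a ratio of 2-fold or more is called past 2-fold. Chrdl1 met this in 9 of the 10 classes, Bmp2 and Bmp4 in 8, Bmp6 in 7, Bmp5 and Gdf10 in 6, Sostdc1 in 1, and Bmp7 and Grem1 in none.

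The upstream sequences of 5 of the 9 genes were found in RefSeq promoter tables (GRCm38.p6): Bmp4, Bmp5, Bmp6, Gdf10 and Grem1. Bmp2, Bmp7, Chrdl1 and Sostdc1 had no entry. Bmp5 and Gdf10 are shown because they were the members past 2-fold in the Pi16 fibroblast-like class and because both were highest in fibroblasts of the ganglia, and Bmp6 because its highest tendon level was in endothelium. Each line gives the 250 bases before the annotated start, all on the plus strand, at chr9:75775115-75775364 for Bmp5, chr14:33923337-33923586 for Gdf10 and chr13:38345466-38345715 for Bmp6. Capitals mark a SMAD box, CAGAC on either strand (GTCTG on the strand shown), and an E-box, CACGTG.
Bmp5: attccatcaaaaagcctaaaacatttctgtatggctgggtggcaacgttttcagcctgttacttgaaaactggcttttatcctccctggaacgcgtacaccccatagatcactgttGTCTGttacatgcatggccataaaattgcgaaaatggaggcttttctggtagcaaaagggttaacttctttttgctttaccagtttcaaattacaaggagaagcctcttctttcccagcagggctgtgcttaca
Gdf10: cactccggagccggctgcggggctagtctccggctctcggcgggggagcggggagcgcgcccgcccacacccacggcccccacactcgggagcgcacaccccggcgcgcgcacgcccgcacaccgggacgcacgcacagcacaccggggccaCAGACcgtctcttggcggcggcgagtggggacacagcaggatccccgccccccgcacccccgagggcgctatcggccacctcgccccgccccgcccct
Bmp6: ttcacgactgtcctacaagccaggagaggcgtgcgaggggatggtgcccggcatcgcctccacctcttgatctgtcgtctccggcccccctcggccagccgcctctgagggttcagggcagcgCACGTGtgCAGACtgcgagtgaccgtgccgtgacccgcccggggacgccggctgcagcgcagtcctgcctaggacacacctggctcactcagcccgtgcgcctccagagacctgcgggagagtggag

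Bmp5, Gdf10 and Bmp6 each had 1 SMAD box in this window, and so did Grem1, whereas Bmp4 had none. Of all 32851 promoters of that length in the table, 42.2% held CAGAC on a strand. An E-box was found upstream of Bmp6 and Bmp4, and 6.02% of promoters held one. The GGCGCC element that SMAD1 and SMAD5 can bind was found upstream of Grem1 alone among the 5, and 9.59% of promoters held it. The Gdf10 window was 78.8% G and C and the Bmp5 window 42.8%, beside a median of 52.4% over all promoters. These are matches of letters and not measured binding.

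In the tendon libraries the members divided into those spread over the stromal classes (Bmp2, Bmp4, Chrdl1), those with a narrower class (Bmp6 in endothelium, Gdf10 in stromal fibroblasts, Bmp5 in mural and stromal cells, Sostdc1 in Schwann cells) and those near the limit of detection (Bmp7, Grem1). In the ganglia Bmp5 and Gdf10 were highest in fibroblasts, and Sostdc1 was highest in glia.

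**Figure D1:**
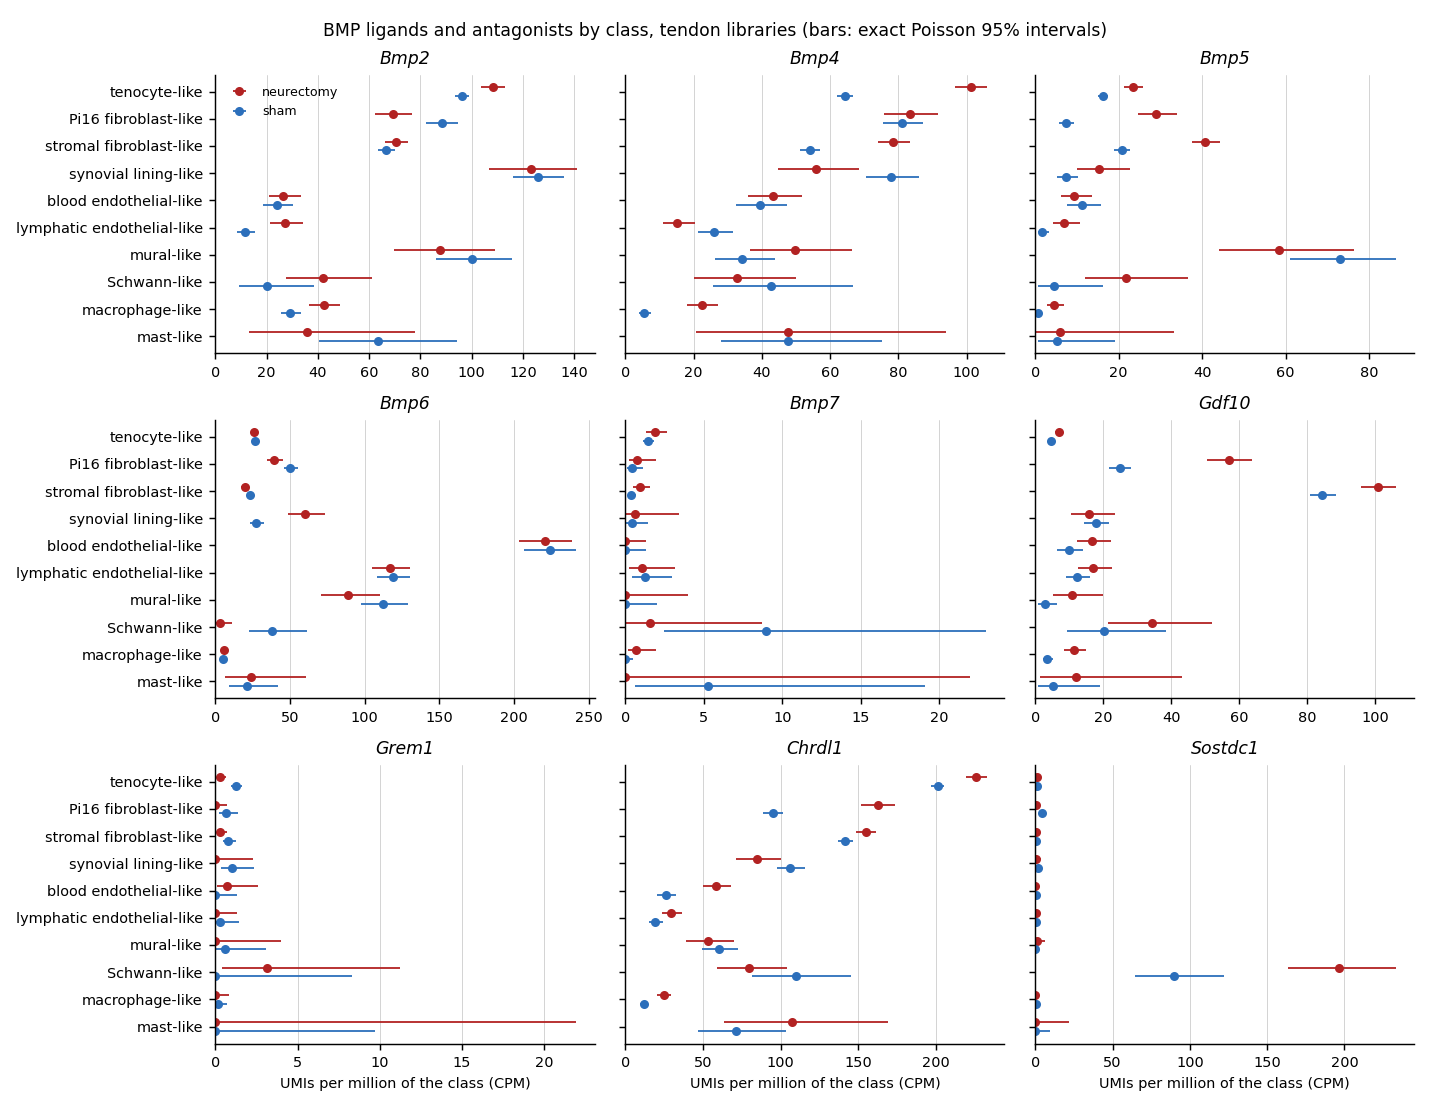
Level of each member (CPM, horizontal axis) in the 10 compared tendon classes, neurectomy in red and sham in blue; points are the summed level and bars exact Poisson 95% intervals. Bmp6 is highest in the blood endothelial-like class (221 and 224 CPM), Gdf10 in the stromal fibroblast-like class (101 and 84.4 CPM) and Sostdc1 in the Schwann-like class (196 and 89.9 CPM), while the axes of Bmp7 and Grem1 end far lower.

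Bmp2, a ligand that induces bone and cartilage, was found in every tendon class compared. In the synovial lining-like class it was 123 CPM after neurectomy and 126 CPM in sham, in the tenocyte-like class 108 and 96.2 CPM, and in the mural-like class 87.7 and 100.1 CPM. It then passed through the Pi16 fibroblast-like (69.3 and 88.2 CPM) and stromal fibroblast-like classes (70.5 and 66.6 CPM) to 27.1 and 11.6 CPM in the lymphatic endothelial-like class. In this order no neighbouring classes stood apart in both libraries, which covers neighbours only and not classes further apart in the order. In the ganglia Bmp2 was highest in the macrophage-like class at 112.5 CPM (98.1 to 128), apart from the mural-like class at 60.0 CPM, and these were apart from the next, the Slc2a1 and Lypd2 gate at 19.2 CPM. Among ganglion macrophages with at least 5000 UMIs the level was 66.1 CPM (47.4 to 89.6). The macrophage-like class of tendon held 42.2 and 29.2 CPM.

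Bmp4, a ligand close to Bmp2 in sequence and receptors, was highest in the tenocyte-like class (101 CPM after neurectomy, 64.4 in sham) and the Pi16 fibroblast-like class (83.4 and 81.1 CPM), followed by the synovial lining-like (55.7 and 77.9 CPM) and stromal fibroblast-like classes (78.5 and 54.0 CPM). Its order over the tendon classes also showed no neighbours apart in both libraries. Bmp4 was found in 28.4% and 19.0% of tenocyte-like barcodes, and in 7.28% and 5.52% once each barcode was thinned to 1000 UMIs, which left out 456 and 2082 shallower barcodes. In the ganglia it was 86.0 CPM in the Slc2a1 and Lypd2 gate and 32.7 CPM in the fibroblast-like class, and the 85 UMIs of that gate came from 39 barcodes.

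Bmp5, a ligand known for its role in the growth of skeletal elements, was highest in the mural-like class of tendon, at 58.5 CPM after neurectomy and 73.0 CPM in sham. The stromal fibroblast-like class followed at 40.8 and 20.7 CPM, overlapped it in an interval and stood apart from the tenocyte-like class at 23.4 and 16.3 CPM. In the ganglia it was 285 CPM (272 to 297) in the fibroblast-like class, where 44.5% of barcodes held a UMI, and 91.8 CPM in the mural-like class. That fibroblast class held 1976 of the 2690 Bmp5 UMIs in kept ganglion barcodes, 73.5%, with 7.61% of the barcodes. The neuron-like class was at 0.537 CPM and the neutrophil-like class had none.

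Bmp6, a ligand of endothelial cells known as a regulator of iron metabolism, was highest in the blood endothelial-like class of tendon, at 221 CPM (204 to 239) after neurectomy and 224 CPM (207 to 242) in sham. This class was apart from the lymphatic endothelial-like class at 117 and 119 CPM, which was not apart from the mural-like class at 88.8 and 112 CPM. By the mean of the libraries the Pi16 fibroblast-like class came next, apart from the mural-like class, at 39.5 and 50.3 CPM, and overlapped the synovial lining-like class at 60.0 and 27.2 CPM. Macrophages had the lowest mean, at 5.65 and 4.80 CPM, while the Schwann-like class held 3.11 and 38.2 CPM. In blood endothelial-like barcodes with at least 5000 UMIs Bmp6 was 351 and 312 CPM, against 140 and 127 CPM in shallower ones. In sham lymphatic endothelium 99 of the 470 UMIs came from 1 barcode. In the ganglia the order was another one, with 326 CPM (291 to 363) in the Slc2a1 and Lypd2 gate, 78.0 CPM in the mural-like class, 64.4 CPM in the fibroblast-like class and 34.2 CPM in the blood endothelial-like class.

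Bmp7, a ligand best known from kidney and eye development, gave 75 UMIs in the whole neurectomy library and 116 in the sham library. Its tenocyte-like level was 1.88 and 1.42 CPM, and the mural-like and blood endothelial-like classes of both libraries had 0 UMIs. The ganglia held 834 UMIs. There Bmp7 was 50.6 CPM in the Slc2a1 and Lypd2 gate, 17.1 CPM in the fibroblast-like class, 15.7 CPM in myelinating Schwann-like cells and 9.72 CPM in satellite glia-like cells, and the fibroblast and Schwann levels overlapped within counting error.

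Gdf10 was highest in the stromal fibroblast-like class, at 101 CPM (95.6 to 106) after neurectomy and 84.4 CPM (80.7 to 88.3) in sham, apart from the Pi16 fibroblast-like class at 56.9 and 24.9 CPM. The tenocyte-like class held 6.91 and 4.58 CPM, the lowest mean of the 10 classes. The stromal fibroblast-like class gave 1419 of the 3470 Gdf10 UMIs of kept neurectomy barcodes and 1926 of the 3838 of sham. A fibroblast class was its main source in the ganglia too, with 46.2 CPM in the fibroblast-like class, then 10.1 CPM in the mural-like class and 2.26 CPM or less in every other class.

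**Figure D2:**
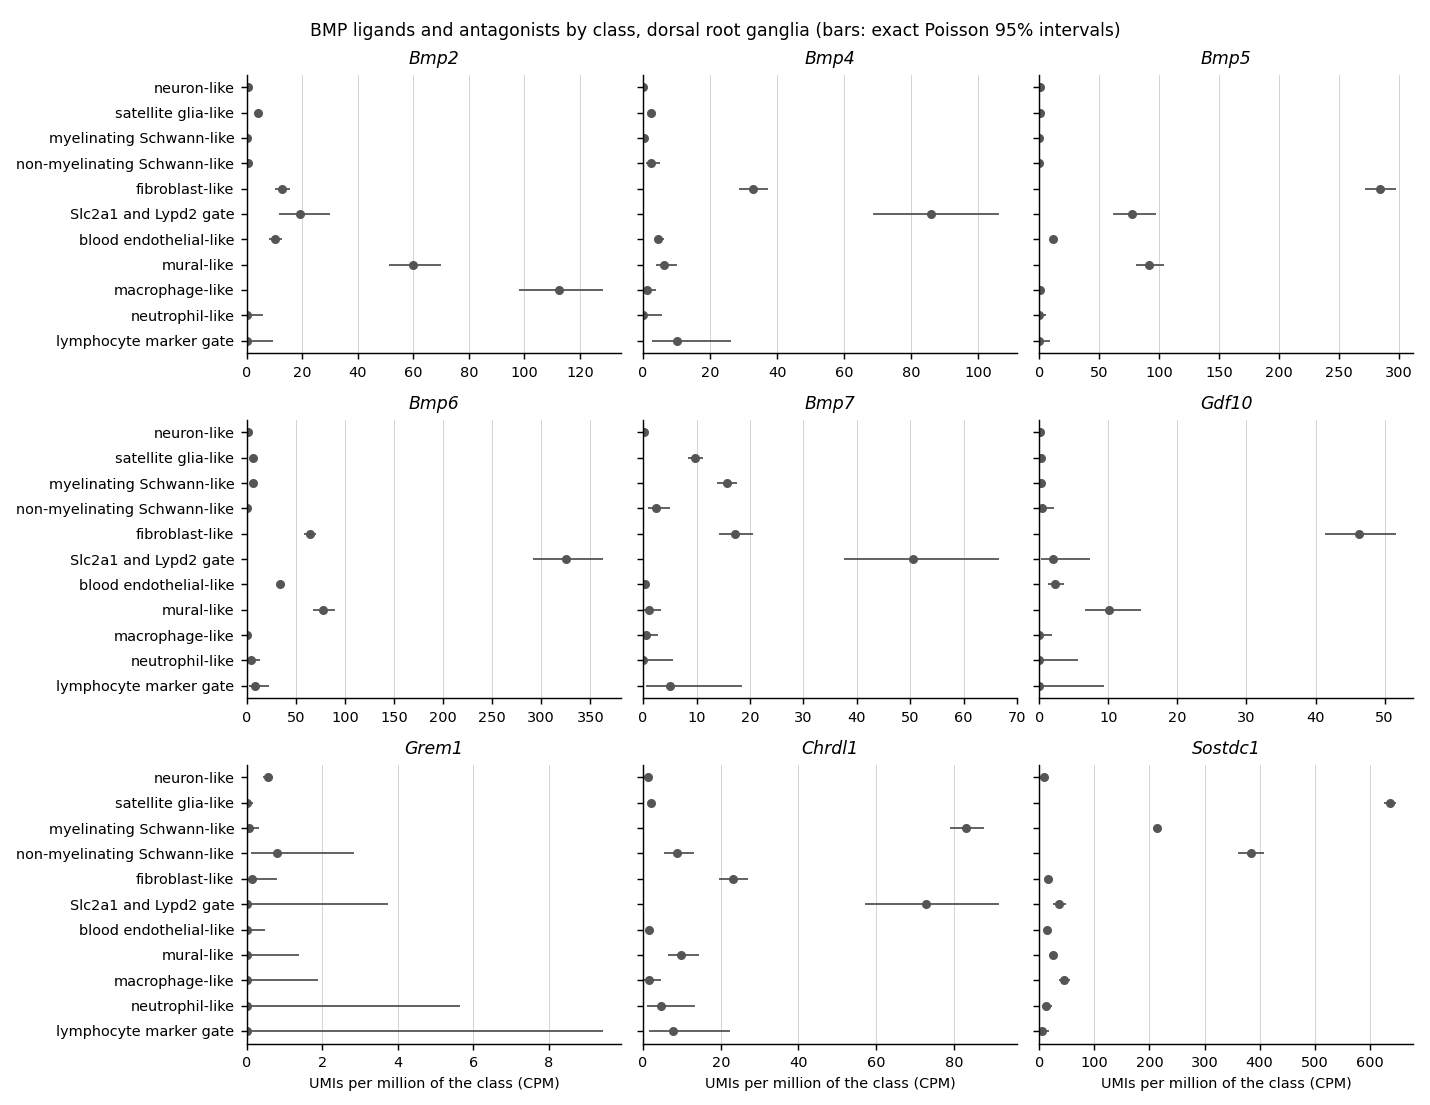
Level of each member (CPM, horizontal axis) in 11 gated classes of the dorsal root ganglia, with exact Poisson 95% intervals as bars. Sostdc1 reaches 636 CPM in satellite glia-like cells, Bmp5 285 CPM in fibroblast-like cells and Bmp6 326 CPM in the Slc2a1 and Lypd2 gate, and the neuron-like class is at 7.97 CPM or lower for every member.

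Of the antagonists, Chrdl1, a chordin-like protein that binds BMP ligands, was spread most widely. It was 226 CPM (219 to 233) after neurectomy and 201 CPM (197 to 205) in sham in the tenocyte-like class, apart from the stromal fibroblast-like class at 155 and 142 CPM. The Pi16 fibroblast-like (163 and 94.9 CPM), synovial lining-like (85.1 and 106 CPM) and Schwann-like classes (79.4 and 110.1 CPM) followed. A UMI was present in 41.8% and 35.1% of tenocyte-like barcodes, and in 16.7% and 15.6% at 1000 UMIs. In macrophage-like cells, which are of another lineage, the share at 1000 UMIs was 3.25% and 2.63%, with median depths of 1439 and 2503 UMIs beside 2303.5 and 1463 in tenocytes. In the ganglia Chrdl1 was 83.2 CPM (79.0 to 87.7) in myelinating Schwann-like cells, against 8.63 CPM in non-myelinating Schwann-like cells and 1.97 CPM in satellite glia-like cells. The myelinating class held 1425 of 2160 UMIs, and the Slc2a1 and Lypd2 gate at 72.8 CPM overlapped it.

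Sostdc1, a secreted protein that inhibits BMP ligands and also acts on Wnt signalling, was highest in Schwann cells in tendon. The Schwann-like class held 196 CPM after neurectomy and 89.9 CPM in sham, apart from every other class, none of which was above 1.08 CPM after neurectomy or 4.37 CPM in sham. It gave 126 of the 196 Sostdc1 UMIs of kept neurectomy barcodes but 40 of the 164 of sham, where the tenocyte-like and Pi16 fibroblast-like classes gave 41 each. In the ganglia the satellite glia-like class, the glia that wrap neuron cell bodies, held 636 CPM (625 to 647), non-myelinating Schwann-like cells 384 CPM (360 to 409) and myelinating Schwann-like cells 213 CPM (206 to 220), each apart from the next. A UMI was found in 83.1%, 51.6% and 31.9% of their barcodes, and in 42.2%, 34.6% and 17.3% at 1000 UMIs. Neutrophil-like cells, which should lack the gene, gave 12.2 CPM, 1.30% of barcodes and 0.704% at 1000 UMIs, with a median of 2070.5 UMIs. The neutrophil interval (5.28 to 24.1 CPM) rests on 8 UMIs in 2 barcodes. The fibroblast-like class was within it at 16.1 CPM (112 UMIs in 52 barcodes). So was the blood endothelial-like class at 14.5 CPM (109 UMIs in 38 barcodes). Whether these levels are background was not tested. Macrophage-like cells at 45.7 CPM (36.7 to 56.3) were above the neutrophil interval, but this turned with depth. In barcodes of at least 5000 UMIs they held 122 CPM (96.5 to 153), against 35.0 CPM in fibroblasts and 20.0 CPM (8.62 to 39.3) in neutrophils, and in shallower ones 9.80 CPM. Levels in non-myelinating Schwann-like cells depended on depth, with 170 CPM in barcodes of at least 5000 UMIs and 576 CPM in shallower ones.

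Grem1, an antagonist of Bmp2 and Bmp4 that marks stromal niches in other organs, was close to the limit of detection. The neurectomy library held 32 UMIs and the sham library 132. In sham tenocyte-like cells 41 of the 57 UMIs came from 1 barcode, and the 8 neurectomy and 21 sham UMIs in the gate led by Ibsp and Spp1 each came from 1 barcode as well. Of the 99 UMIs in kept ganglion barcodes 83 were in neurons, where 0.551 CPM amounts to very few transcripts per cell at a median of 47138 UMIs.

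Neurons of the ganglia held little of any member, and their subtypes were compared only for description. Chrdl1 stood out in the Trpm8 marker subtype, the cold-sensing neurons, with 79 UMIs in 54 of 224 barcodes and 10.1 CPM (8.02 to 12.6), beside 0.158 to 2.82 CPM in the other 8 subtypes. Grem1 was 1.92 CPM (1.08 to 3.17) there, next to 1.13 CPM (0.618 to 1.90) in the Th and Tafa4 subtype, and these overlap. Sostdc1 was also highest in the Trpm8 subtype, at 28.6 CPM, against 2.59 to 9.42 CPM in the other subtypes. The summed satellite glia markers were likewise highest there, at 3951 CPM against 414 to 1296 CPM in the other subtypes, with none of the 8 at 0, and their part in these levels was not tested. Chrdl1 was 1.97 CPM in the satellite glia-like class. The summed myelinating Schwann markers were 392 CPM in the Trpm8 subtype and 305 to 1298 CPM in the other subtypes. Bmp6 was 1.88 CPM (1.32 to 2.60) in the peptidergic subtype and 0.770 CPM or less in the other subtypes, with 1.23 CPM in neurons given no subtype.

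Neurectomy was set beside sham class by class. In the tenocyte-like class (2474 and 7572 barcodes) none of the 5 measured members was past 2-fold, where 1.42% of 8584 measured genes were (0.757% higher and 0.664% lower). Bmp4 differed most, at 101 and 64.4 CPM, a ratio of 1.57 (1.48 to 1.67). The largest cluster of the class was cluster 11 after neurectomy (36.1% of it) and cluster 16 in sham (52.2%). Bmp5 was 23.4 and 16.3 CPM, a ratio of 1.44 (1.27 to 1.62). Chrdl1 and Bmp2 were both 1.12 times as high after neurectomy (1.08 to 1.17 and 1.07 to 1.19), and Bmp6 was level at 26.0 and 26.7 CPM, a ratio of 0.974 (0.874 to 1.08). Without the barcodes that both tendon libraries held, the Bmp4 ratio was 1.48 (1.39 to 1.58) and the Bmp5 ratio 1.64 (1.43 to 1.87).

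The Pi16 fibroblast-like class (1156 and 1464 barcodes) needed any 2 of 8 markers, Pi16 and Dpp4 among them. Of its barcodes 53.2% and 53.3% were near a threshold or at the lowest number of markers. Of its measured members Bmp5 differed most. It was 29.0 CPM (152 UMIs in 59 barcodes) after neurectomy and 7.26 CPM (68 UMIs in 34 barcodes) in sham, a ratio of 4.00 (2.98 to 5.40). The class's Gdf10 was 56.9 CPM and 24.9 CPM, a ratio of 2.29 (1.92 to 2.73). These were the 2 of 6 measured members past 2-fold, both higher, where 1.53% of 9198 measured genes were past 2-fold either way, 0.924% higher and 0.609% lower. Chrdl1 was 1.71 times as high (1.56 to 1.89), while Bmp2 and Bmp6 were lower, at ratios of 0.785 (0.692 to 0.889) and 0.786 (0.664 to 0.928), and Bmp4 was level. One neurectomy barcode held 34 of the 152 Bmp5 UMIs.

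The Bmp5 and Gdf10 differences were present at both depths. In barcodes of at least 5000 UMIs Bmp5 was 28.5 and 6.04 CPM, and in shallower ones 30.4 and 14.0 CPM. Gdf10 was 59.9 and 23.9 CPM in the deep barcodes and 48.5 and 30.1 CPM in the shallow ones, where the intervals overlapped. Without the barcodes held by both tendon libraries the ratios were 4.80 (3.50 to 6.65) for Bmp5 and 2.01 (1.66 to 2.42) for Gdf10. The class's own 8 markers summed to 4176 and 4447 CPM, and its largest cluster was cluster 6 after neurectomy (34.2% of the class) and cluster 4 in sham (31.8%). Both clusters were named stromal fibroblast where classes were taken from clusters.

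**Figure D3:**
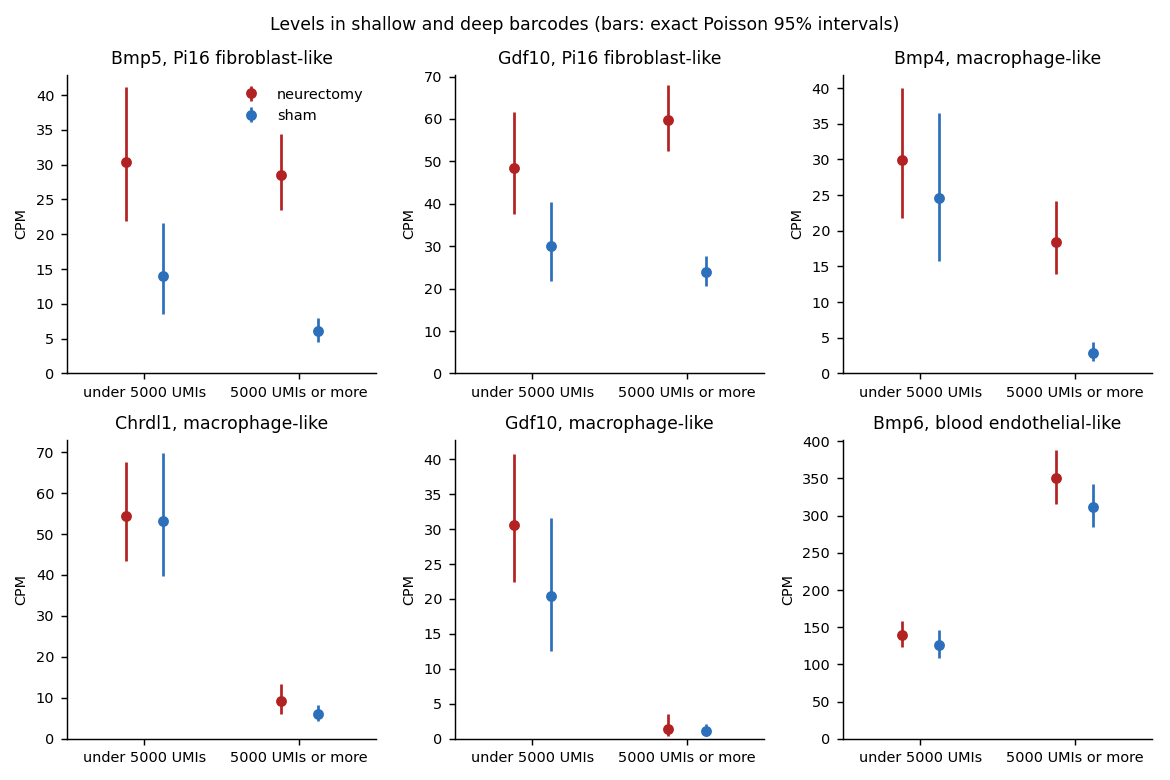
Levels (CPM, vertical axis) after neurectomy (red) and in sham (blue) in barcodes under 5000 UMIs and at 5000 UMIs or more, with exact Poisson 95% intervals as bars, for 6 pairs of member and class. In the Pi16 fibroblast-like class Bmp5 and Gdf10 are higher after neurectomy at both depths, but the Gdf10 intervals overlap in the shallow barcodes. Chrdl1 and Gdf10 in macrophage-like cells have overlapping intervals within a depth and are far lower in the deep barcodes.

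In the stromal fibroblast-like class (5105 and 7102 barcodes) none of 6 measured members was past 2-fold, where 1.62% of 9211 genes were (1.15% higher and 0.467% lower). The largest cluster of the class was cluster 3 after neurectomy (37.3% of it) and cluster 16 in sham (34.3%). Where classes were taken from clusters, cluster 3 was named stromal fibroblast but cluster 16 tenocyte. The part of this in the member ratios was not tested. Bmp5 came near 2-fold, at 40.8 and 20.7 CPM and a ratio of 1.97 (1.74 to 2.23), with 107 of the 574 neurectomy UMIs in 1 barcode. Without the barcodes held by both tendon libraries the ratio was 1.71 (1.49 to 1.96). Bmp4 was 78.5 and 54.0 CPM, a ratio of 1.45 (1.34 to 1.58), or 1.28 (1.16 to 1.40) without those barcodes. Gdf10 was 101 and 84.4 CPM, a ratio of 1.19 (1.11 to 1.28), and Bmp6 was slightly lower at 19.7 and 23.3 CPM. Bmp5 was thus higher after neurectomy in all 3 fibroblast and tenocyte classes.

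The pools differed in sex-linked transcripts, and within the sham library some members differed along that line. Sham barcodes with Xist and no Y-linked UMI (11051) were set beside those with Y-linked UMIs and no Xist (2027), 708 having both. Gdf10 in stromal fibroblast-like cells was 53.8 CPM in the Xist barcodes and 221 CPM in the Y-linked ones, a ratio of 0.243 (0.220 to 0.269). Bmp5 in tenocyte-like cells was 10.7 and 38.5 CPM, a ratio of 0.278 (0.236 to 0.328), and in stromal fibroblast-like cells 22.7 and 22.9 CPM. The labels tie neither kind of barcode to an animal, so sex and single mice cannot be told apart here.

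The direction of the split differed between members. In mural-like cells Bmp6 was lower in Xist barcodes, at 55.5 CPM against 188 CPM in Y-linked ones, while Chrdl1 was higher, at 91.7 and 9.32 CPM (5 UMIs). Bmp7 in sham tenocyte-like cells gave 60 UMIs in 3434 Xist barcodes and 0 in 587 Y-linked ones. Grem1 gave 7 and 42 UMIs there, and 41 of the 42 came from 1 barcode. Bmp2 in tenocyte-like cells was level at 98.1 and 100.2 CPM, and Chrdl1 at 208 and 195 CPM. When both libraries were limited to Xist barcodes, the neurectomy ratio of Bmp5 was 2.23 (1.93 to 2.59) in the tenocyte-like class and 4.09 (2.95 to 5.75) in the Pi16 class, that of Gdf10 in stromal fibroblast-like cells 1.92 (1.75 to 2.11), and that of Bmp6 in the mural-like class 1.72 (1.16 to 2.57) in place of 0.791.

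**Figure D4:**
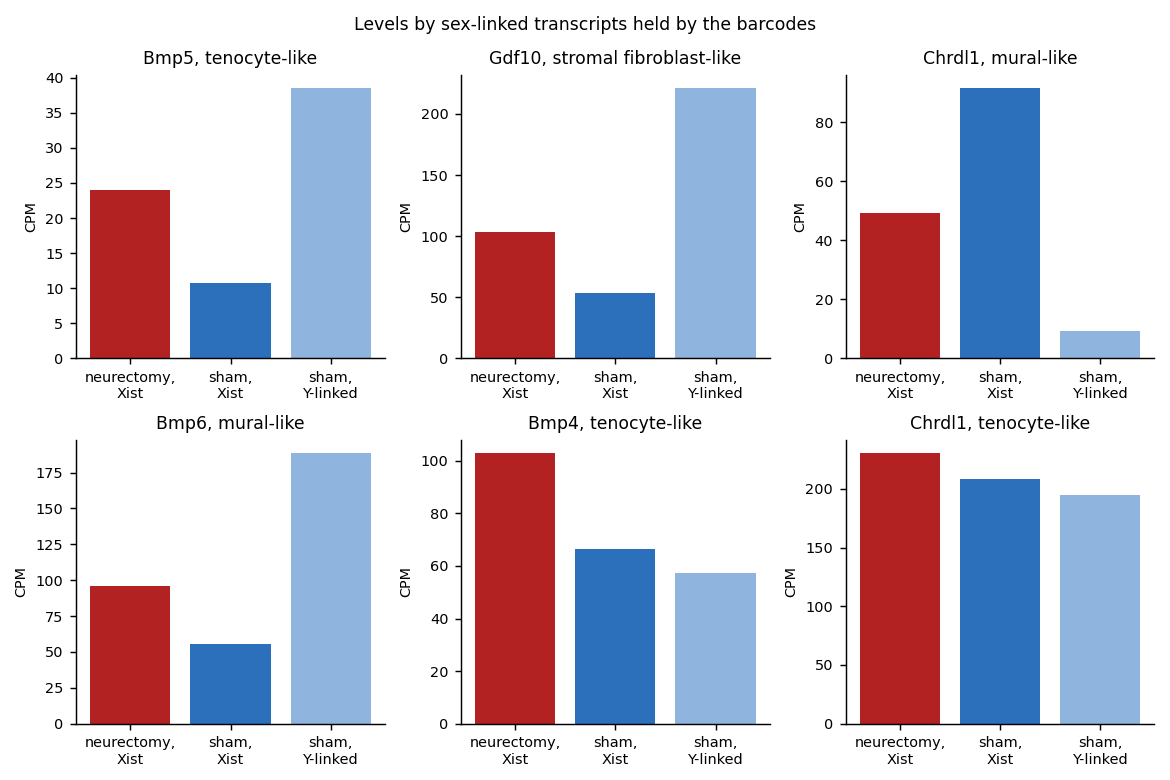
Levels (CPM, vertical axis, from 0) in neurectomy barcodes with Xist and no Y-linked UMI (red), sham barcodes of the same kind (dark blue) and sham barcodes with Y-linked UMIs and no Xist (light blue), for 6 pairs of member and class; bars are summed levels, 1 library each. Gdf10 in stromal fibroblast-like cells and Bmp5 in tenocyte-like cells are highest in the Y-linked sham barcodes (221 and 38.5 CPM), and Chrdl1 in mural-like cells is lowest there (9.32 CPM).

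In the synovial lining-like class (250 and 389 barcodes) 2 of 6 measured members were past 2-fold, both higher, where 5.21% of 8919 genes were past it, 2.46% higher and 2.76% lower. Bmp6 was 60.0 and 27.2 CPM, a ratio of 2.20 (1.68 to 2.87), and Bmp5 was 15.3 and 7.36 CPM, a ratio of 2.08 (1.20 to 3.55). Of the 25 Bmp5 UMIs after neurectomy 19 came from 1 barcode, and 6 were spread over 5 others, so this ratio rests on that barcode. Bmp4 was lower, at 55.7 and 77.9 CPM and a ratio of 0.715 (0.562 to 0.900), and Bmp2 was level at 0.977, or 0.723 (0.587 to 0.884) without the barcodes held by both tendon libraries. The class differed between the libraries in itself. Its barcodes had medians of 1628.5 and 10438 UMIs, and its own 6 markers summed to 45907 and 25406 CPM. Its largest cluster was cluster 0 after neurectomy and cluster 11 in sham. Where classes were taken from clusters, cluster 0 was named synovial lining but cluster 11 tenocyte. The part of these differences in the member ratios was not tested.

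In the vessels Bmp6 did not differ beyond counting error in blood endothelial-like cells (1086 and 899 barcodes), at 221 and 224 CPM and a ratio of 0.986 (0.882 to 1.10). One of the 6 measured members there was past 2-fold and higher, where 2.04% of 9670 genes were past it, 1.56% higher and 0.476% lower. This was Chrdl1, at 58.3 and 26.1 CPM, a ratio of 2.23 (1.69 to 2.97). Chrdl1 was 29.8 and 6.66 CPM in deep barcodes of the class and 76.0 and 47.5 CPM in shallow ones. Of the 8 stromal markers 7 were higher after neurectomy in the whole class, with sums of 9839 and 9149 CPM. In the deep barcodes 8 of 8 were, with 5253 and 2883 CPM, and in the shallow ones 2 of 8, with 12691 and 16031 CPM. Their part in the Chrdl1 result was not tested.

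In lymphatic endothelial-like cells (876 and 795 barcodes) 1 of 5 measured members was past 2-fold and higher, where 2.74% of 9563 genes were past it, 2.04% higher and 0.701% lower. This was Bmp2, at 27.1 and 11.6 CPM, a ratio of 2.33 (1.59 to 3.44). Bmp6 was 117 and 119 CPM, a ratio of 0.984 (0.852 to 1.14), but 125 and 68.9 CPM without the barcodes held by both tendon libraries, a ratio of 1.81 (1.46 to 2.25). Bmp4 was lower at 15.2 and 26.1 CPM, a ratio of 0.582 (0.397 to 0.841), with 27 of the 103 sham UMIs in 1 barcode. All 10 tenocyte markers were higher in the class after neurectomy, with sums of 2746 and 1948 CPM, but in barcodes of at least 5000 UMIs none of the 10 was. Their part in the Bmp2 ratio was not tested.

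In mural-like cells (356 and 508 barcodes) none of the 5 measured members was past 2-fold, where 4.6% of 7428 genes were (2.34% higher and 2.26% lower), and all 5 intervals held 1. Bmp5 was 58.5 and 73.0 CPM, a ratio of 0.801 (0.572 to 1.11), and Bmp6 88.8 and 112 CPM, a ratio of 0.791 (0.604 to 1.03). With at least 5000 UMIs Bmp5 was 35.6 and 85.6 CPM, and in shallower barcodes 75.5 and 54.0 CPM, so its direction changed with depth. Cluster 5 was the largest cluster of the mural-like class in both libraries (63.2% and 45.7% of it). It was named blood endothelial where classes were taken from clusters. Of the mural-like barcodes 48.0% and 45.7% were near a threshold or at the lowest number of markers.

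In Schwann-like cells (323 and 115 barcodes) 1 of 2 measured members was past 2-fold and higher, where 9.9% of 4416 genes were past it, 5.68% higher and 4.21% lower. Sostdc1 gave 126 UMIs in 69 barcodes after neurectomy and 40 UMIs in 18 barcodes in sham, which is 196 and 89.9 CPM and a ratio of 2.18 (1.52 to 3.20). One sham barcode held 14 of its 40 UMIs. The ratio was carried by the deep barcodes, 161 and 39.1 CPM in 20 and 23 barcodes, while the shallow ones held 214 and 177 CPM. In those few deep barcodes 26.4% of 2104 measured genes were past 2-fold. In Xist barcodes of the class (177 and 36) 25.7% of 2449 were. The class's own 8 markers summed to 17982 and 18129 CPM, but in the deep barcodes to 31895 and 21476 CPM. Stromal markers summed to 5897 and 21299 CPM in those deep barcodes, so the sham ones held more stromal RNA, and its part in the ratio was not tested. Chrdl1 was 79.4 and 110.1 CPM, with an interval that held 1, and 1 barcode held 20 of the 49 sham UMIs. Bmp6 gave 2 UMIs after neurectomy and 17 in sham, too few to be compared. The sural nerve was the nerve cut in this group, and the labels do not say how much nerve the tendon samples held.

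Macrophage-like cells (1252 and 1085 barcodes) lay mainly in cluster 2 after neurectomy (65.7%), while cluster 15 was their largest in sham (45.7%). They had 3 of 4 measured members past 2-fold, all higher, where 3.63% of 9221 genes were past it, 2.7% higher and 0.933% lower. Bmp4 was 22.4 and 5.57 CPM, a ratio of 4.01 (2.78 to 5.88). Gdf10 was 11.3 and 3.50 CPM, a ratio of 3.23 (1.98 to 5.36), and Chrdl1 24.6 and 12.1 CPM, a ratio of 2.04 (1.53 to 2.72). Bmp2, found in macrophages of the ganglia as well, was 42.2 and 29.2 CPM, a ratio of 1.45 (1.19 to 1.77).

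These levels followed the depth of the barcodes. Macrophage-like barcodes of at least 5000 UMIs numbered 246 and 454, and shallower ones 1006 and 631. Gdf10 was 1.37 and 1.04 CPM in the deep barcodes and 30.5 and 20.5 CPM in the shallow ones. Chrdl1 was 9.24 and 6.09 CPM in the deep barcodes and 54.5 and 53.2 CPM in the shallow ones. Of these 3, Bmp4 differed most in the deep barcodes, at 18.5 and 2.82 CPM. However, 37 of its 99 neurectomy UMIs came from 1 barcode, and without the barcodes held by both tendon libraries its ratio was 2.04 (1.33 to 3.15). All 8 stromal markers and 9 of 10 tenocyte markers were higher in the class after neurectomy, with stromal sums of 7227 and 5414 CPM. Among the shallow barcodes this was turned, with 2 of 8 stromal markers higher (14866 and 22574 CPM) and 1 of 10 tenocyte markers (3938 and 5739 CPM). The part of these markers in the ratios was not tested. Mast-like cells (102 and 126 barcodes) had no measured member, where 15.3% of 2125 genes were past 2-fold (8.42% higher and 6.87% lower).

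**Figure D5:**
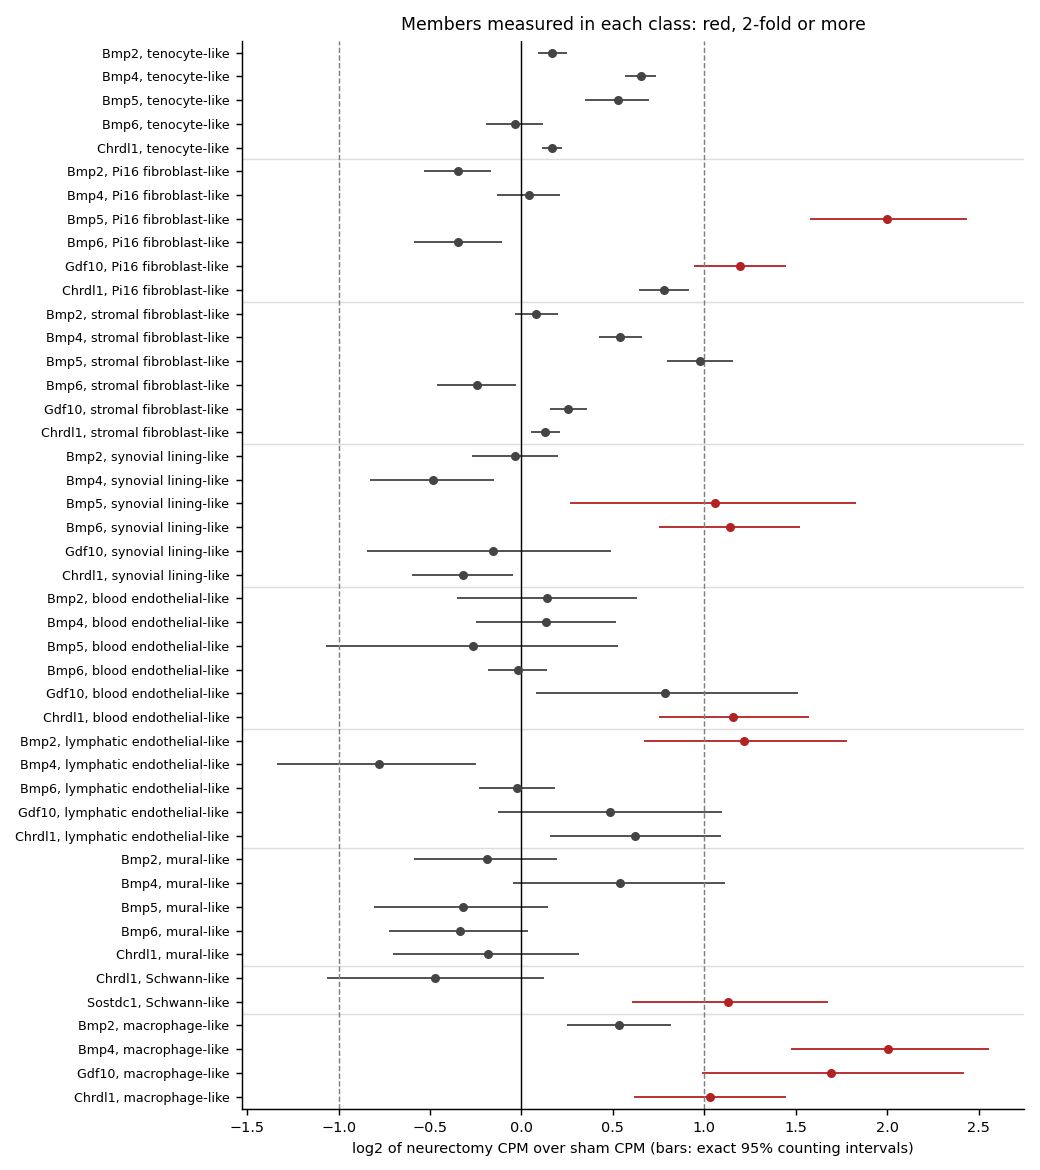
Base-2 logarithm of the neurectomy over sham level (horizontal axis) for every member measured in a tendon class, with exact 95% counting intervals as bars; dashed lines stand at 2-fold and points at or past it are red. All red points lie on the side higher after neurectomy, among them Bmp5 in the Pi16 fibroblast-like class (ratio 4.00) and Bmp4 in macrophage-like cells (4.01), while the tenocyte-like and mural-like rows hold none.

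How many of these 10 ratios stayed past 2-fold depended on how barcodes were weighted, filtered and classed. With levels averaged over barcodes after scaling by own total, so that shallow and deep barcodes weighed the same, Bmp5 in the Pi16 class alone did, at 1.60 on the log2 scale. The log2 differences of the others were then 0.82 for Gdf10 in the Pi16 class, 0.72 for Chrdl1 in blood endothelial-like cells, 0.73 for Bmp2 in lymphatic endothelial-like cells, 0.40 for Sostdc1 in Schwann-like cells and 0.51 to 0.75 for the 3 in macrophage-like cells. In the synovial lining-like class Bmp6 was 0.72 and Bmp5 turned to -0.52. With at least 5000 UMIs 7 of the 10 stayed past 2-fold. The exceptions were Bmp2 in lymphatic endothelial-like cells (0.89) and Gdf10 and Chrdl1 in macrophage-like cells (0.40 and 0.60). With classes taken from clusters 7 had a value and 3 stayed, and Sostdc1 in Schwann-like cells was then lower after neurectomy, at -0.58. With 1 more marker in the gate 8 of the 10 stayed. At 1000 genes or more 9 stayed, and so did 9 without the barcodes both tendon libraries held. All 10 stayed with at most 5% mitochondrial UMIs, in Xist barcodes and without the top 8% of Scrublet scores.

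Other genes of the pathway were read from lists of further ligands, receptors, SMADs, target genes, antagonists and proteases. Of the 11 further ligands only Bmp3, a BMP that opposes others, was measured in tenocyte-like cells. It was 22.7 CPM after neurectomy and 9.12 CPM in sham, a ratio of 2.48 (2.16 to 2.85). In the Pi16 and stromal fibroblast-like classes the only one measured was Bmp8a, within 2-fold, and in the other 7 classes none was measured.

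Receptors, which decide whether a cell can respond, differed little in the main stromal classes. None of the 10 of 11 measured in tenocyte-like, Pi16 fibroblast-like or stromal fibroblast-like cells was past 2-fold, with medians on the log2 scale of 0.02, 0.13 and 0.00 beside 0.02, 0.01 and 0.04 over all measured genes. Bmpr1b, a type I BMP receptor, was 463 and 426 CPM in tenocyte-like cells, its highest class. Bmpr2, the type II receptor, was 412 and 414 CPM in blood endothelial-like cells and 462 CPM in those of the ganglia, the class where Bmp6 was highest in tendon. In the synovial lining-like class 1 of 10 was higher (Acvrl1, 22.0 and 9.54 CPM) and 2 were lower (Bmpr1b, 161 and 419 CPM, and the coreceptor Rgma, 20.2 and 41.2 CPM). Of all 8919 measured genes there 2.46% were past 2-fold and higher and 2.76% lower. The activin receptor Acvr2a was past 2-fold and higher in mural-like (120.2 and 58.6 CPM) and Schwann-like cells (131 and 38.2 CPM). No SMAD of the 2 to 5 measured per class was past 2-fold in any of the 10 classes, where 1.42% to 15.3% of all measured genes were.

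The target genes, among them the Id genes that BMP signalling induces, were within 2-fold in tenocyte-like (7 of 14 measured), Pi16 (10) and stromal fibroblast-like cells (9). Id3 was their highest gene, at 192 and 203 CPM, 233 and 226 CPM, and 260 and 276 CPM. The target gene medians on the log2 scale were -0.15, 0.04 and -0.04, beside 0.02, 0.01 and 0.04 over all measured genes. Of the 7 target gene intervals in tenocyte-like cells 5 were below 1 and 2 above. In lymphatic endothelial-like cells 2 of 7 target genes were past 2-fold and lower, where 0.701% of 9563 measured genes were. Id1 was 80.2 and 174 CPM, a ratio of 0.461 (0.394 to 0.537), and Id3 167 and 345 CPM, a ratio of 0.483 (0.434 to 0.537). Their values by depth or without the barcodes held by both tendon libraries are not given, and Bmp6 in this class moved without those barcodes. In Schwann-like cells 2 of 3 target genes were past 2-fold and higher, where 5.68% of 4416 measured genes were. These were Runx2 at 98.1 and 15.7 CPM (63 and 7 UMIs) and Id2 at 173 and 80.9 CPM. Elsewhere Id4 was higher in blood endothelial-like cells (14.3 and 4.53 CPM) and Runx2 lower in the synovial lining-like class (9.18 and 18.7 CPM). In the ganglia Id3 was highest in mural-like cells, at 2337 CPM, and Bambi, a decoy receptor, in satellite glia-like cells at 256 CPM, the class where Sostdc1 was highest.

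Further antagonists were within 2-fold in tenocyte-like, Pi16 and stromal fibroblast-like cells (13 of 22 measured in each). Follistatin (Fst), which binds activins and some BMPs, was past 2-fold and higher in 3 classes: synovial lining-like (67.3 and 29.2 CPM), blood endothelial-like (32.5 and 13.2 CPM) and macrophage-like cells (27.6 and 4.54 CPM). It is itself a fibroblast gene here, at 236 and 132 CPM in the Pi16 class and 234 and 139 CPM in the stromal class. Bmper was higher in mural-like (30.3 and 14.4 CPM) and macrophage-like cells (12.9 and 5.31 CPM), and Dand5 in lymphatic endothelial-like cells (19.9 and 9.11 CPM). In mast-like cells Fstl1 (339 and 873 CPM) and Nbl1 (95.2 and 296 CPM) were lower.

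Of the 6 proteases that process ligands or antagonists, Tll1, which cleaves chordin-type antagonists, was past 2-fold and higher in both fibroblast classes, at 25.0 and 9.39 CPM in the Pi16 class and 23.2 and 9.38 CPM in the stromal class. Its highest levels were in endothelium, at 143 CPM in blood endothelial-like cells after neurectomy and 90.4 CPM in lymphatic endothelial-like cells in sham. Protease ratios by depth or without the barcodes held by both tendon libraries are not given. Pcsk6 was higher in the synovial lining-like class (600.4 and 296 CPM) and lower in Schwann-like cells (31.1 and 67.4 CPM), and Pcsk5 was higher in macrophage-like cells (17.6 and 6.74 CPM).

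The genes whose levels followed each member most closely were taken over 20 points, 10 tendon classes in 2 libraries, by Pearson's r of log2(CPM + 1). The points share libraries and stromal RNA, so these values are a description. For Chrdl1 they were Fzd1 (r = 0.97), Zfhx4 (0.95) and Armh4 (0.95). For Sostdc1 they were Adamts20, Foxd3 and Myh14 (0.96 each), all highest in the Schwann-like class. For Bmp6 they were Mesd (0.90), Plxna2 (0.90) and Tanc1 (0.89), for Gdf10 Bmper (0.82), Fgf7 (0.81) and Fst (0.79), and for Bmp5 Gpc6 (0.86), Ano1 (0.86) and Steap4 (0.85). Bmp4 was followed by Lix1l (0.92), Npas2 (0.90) and Mxra7 (0.89), and Bmp2 by Itgb5 (0.88), Chsy3 (0.87) and Dmpk (0.86). Bmp7 and Grem1 reached 8.99 and 3.11 CPM at most and are left out.

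Over the 11 ganglion classes the closest genes to Sostdc1 were Pou3f2, Igsf11 and Gpr37l1 (r = 0.98 each), all highest in satellite glia-like cells. Bmp5 was followed by Fgfr2, Vtn and Meox2 (0.98 each), and Gdf10 by Tfpi2 (0.95), Ntn4 (0.94) and Steap4 (0.94), the last also near Bmp5 in tendon. Bmp2 was followed by Tmem37 (0.97) and Tgfbr1 (0.90), both highest in macrophage-like cells. Chrdl1 was followed by Fgf7 (0.91), Prmt1 (0.91) and Stxbp6 (0.90), and Bmp7 by Smim11, Lage3 and Dpm3 (0.93 each). For Bmp4 the closest were Igf2 (0.97), Gm42139 (0.96) and Eya2 (0.96), and for Bmp6 Mgp (0.93), Lamb2 (0.91) and Foxc2 (0.91), with Igf2 and Mgp highest in the Slc2a1 and Lypd2 gate. Grem1 was at 0.785 CPM or less in every ganglion class and is left out.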

How the data were processed

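The deposited values were whole UMI counts per gene and barcode, which the authors made with 10x Genomics software (Cell Ranger 8.0.1), per the file headers. The builds mm10 and GRCm39 stand in the submitters' processing notes with no library assigned to either, so promoter coordinates come from RefSeq tables of GRCm38.p6 and not from the files. The members and gene lists were chosen with earlier results of these data known.

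Barcodes were kept from 500 detected genes upward, if no more than 15% of UMIs were mitochondrial. A class needed at least 2 of its markers (3 for synovial lining and cartilage) and enrichment of their summed UMIs over the average barcode, 3-fold for most classes, with thresholds set after the data had been seen. Of the kept barcodes 37.1% (neurectomy), 17.9% (sham) and 12.4% (ganglia) had no class, and 2.11%, 1.81% and 5.05% fitted several and were left out. Doublets were scored with Scrublet, whose threshold marked 0%, 0% and 2.39%, so it did not work in the tendon libraries, and none were removed. UMIs were summed per class and library. Poisson, conditional binomial and Clopper-Pearson intervals are exact, and the ratio code was tested on simulated data.

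Named were all members, pathway genes past 2-fold or highest in their list, and the 3 genes closest to each member by correlation among genes reaching 50 CPM; a few genes that this rule names are not reported here. Alternatives were depth, gene and mitochondrial filters, scaling, gates, doublets, clusters (Leiden), sex-linked transcripts and, chosen after seeing the data, barcodes held by both tendon libraries. Analyses used Python 3.11.15, numpy 2.4.6, pandas 2.3.3, scipy 1.17.1, scanpy 1.11.5, leidenalg 0.10.2 and matplotlib 3.10.9.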

Additional observations from a re-analysis of the deposited data

How the results depend on the processing

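No paired analysis was possible because each group was 1 library. On the log2 scale (neurectomy minus sham) the values of each member in its highest compared class were as follows, and the cause of each move was not tested. Bmp4 in tenocyte-like cells was 0.65, against 0.49 with each barcode scaled to its own total and 0.57 without the barcodes both tendon libraries held. Chrdl1 in tenocyte-like cells was 0.17, against 0.10 by own total and 0.25 with classes from clusters. Gdf10 in stromal fibroblast-like cells was 0.26, against 0.056 at 5000 UMIs or more, 0.089 at 1000 genes or more, 0.97 by own total, 0.94 in Xist barcodes and 0.37 without the common barcodes, and it reversed to -0.36 with classes from clusters. Bmp2 in the synovial lining-like class was -0.03, against -0.80 by own total, 0.97 from clusters and -0.47 without the common barcodes. Bmp6 in blood endothelial-like cells was -0.02, against 0.17 at 5000 UMIs or more and -0.22 in Xist barcodes. Bmp5 in mural-like cells was -0.32, against -1.27 at 5000 UMIs or more, 0.19 by own total and 0.52 from clusters. Sostdc1 in Schwann-like cells was 1.13, against 2.04 at 5000 UMIs or more and 0.40 by own total, and it reversed to -0.58 from clusters.

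Other members reversed as follows. Scaled by own total, Bmp6 in the Pi16 class was 0.15, Bmp5 in the synovial lining-like class -0.52, Chrdl1 in the lymphatic class -0.015 and Bmp2 in macrophages -0.14. With classes from clusters, Chrdl1 in the synovial lining-like class was 2.01 and Bmp4 in the lymphatic class 0.073. With 1 more marker in the gate, Bmp5 in the synovial lining-like class was -0.92. Bmp5 in the Pi16 class stayed between 1.60 and 2.26 under the alternatives run, and Gdf10 there between 0.82 and 1.32. The cluster named for that class held 27 barcodes, so classes from clusters gave no value for it. Leaving out the barcodes with the top 8% of Scrublet scores moved none of the 45 values beyond its counting interval. Shallow barcodes limit these data: 13.4% of neurectomy and 20.9% of sham barcodes reached 5000 UMIs.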
